A study of Mus musculus with 4 samples.

Results

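The expression of 9 genes of hypoxia and Vegf signalling was measured in neural progenitor cells (NPCs) and in newly formed neurons, both sorted from mouse cortex on embryonic day 15.5. The 9 were chosen by gene symbol from the 23240 rows of the table, and each symbol named 1 row: Hif1a, Epas1, Vhl, Egln1, Egln3, Vegfa, Vegfb, Vegfc and Adm. All 9 passed the filter on low counts and were tested. Embryos of both groups carried Nestin-GFP and DCX-mRFP, from heterozygous Nestin-GFP mice bred with homozygous DCX-mRFP mice. The NPC gate took cells that were green alone and the neuron gate took double-coloured cells, with 2 RNA-seq libraries of total RNA per group. The labels call the libraries duplicates without naming separate litters, so p-values here reflect the spread between these libraries alone, and that spread may be technical.

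Cells adjust to low oxygen through hypoxia-inducible factors (HIFs), each made of an oxygen-labile alpha subunit and a stable Arnt partner. In the presence of oxygen, the prolyl hydroxylases of the Egln family mark the alpha subunit, and the von Hippel-Lindau protein Vhl then recruits a ubiquitin ligase that sends it for degradation. When oxygen is scarce the alpha subunit escapes, and the factor switches on genes for glucose use, for the vessel growth factor Vegfa and for the vasodilator peptide adrenomedullin. In the embryonic brain, neural cells are a known source of Vegfa and the ingrowing endothelium carries its receptors. This control acts largely on the alpha protein, which RNA counts do not measure.

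Total counts were close between libraries, at 52611828 to 55615142. Levels are given as CPM, the count of a gene relative to the TMM-scaled size of its library, and group values as mean ± SD with n = 2. A log2 change sets neurons over NPCs and carries its standard error. Every adjusted p-value is from the quasi-likelihood test of edgeR, adjusted by Benjamini-Hochberg over all 15292 genes tested, with a threshold of 0.05. Cell type markers were read in the same fit. All 9 radial glia and 4 of 4 intermediate progenitor markers tested were higher in the NPC libraries, and 6 of 7 neuron markers in the neuron libraries. Markers of other cells were also higher in NPCs, with 17 of 17 endothelial, 10 of 11 pericyte and mural, 8 of 8 oligodendrocyte precursor, 6 of 7 meningeal fibroblast, 13 of 13 microglia and 9 of 9 red cell markers past the threshold. Of all genes tested, 36.9% were called as higher in NPCs and 35.8% as higher in neurons. In bulk libraries, fewer cells of a type and less RNA per cell cannot be told apart.

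Of the 9 genes, 6 were lower in neurons, 2 were higher and 1 did not pass. Among all genes tested, 36.9% were called as higher in NPCs, 35.8% as higher in neurons and 72.6% in either direction, so a call alone sets these 9 genes little apart. The sizes differed more than the calls. Epas1, Egln3 and Adm were at 3.43%, 11.9% and 2.34% of their NPC level in neurons, and the other 6 genes were at 52.9% to 132%. Of all genes tested, 18.5% were higher in NPCs by at least 2-fold, as these 3 were. The groups did not overlap for any of the 9, as for 86.0% of all genes tested.

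**Figure D1:**
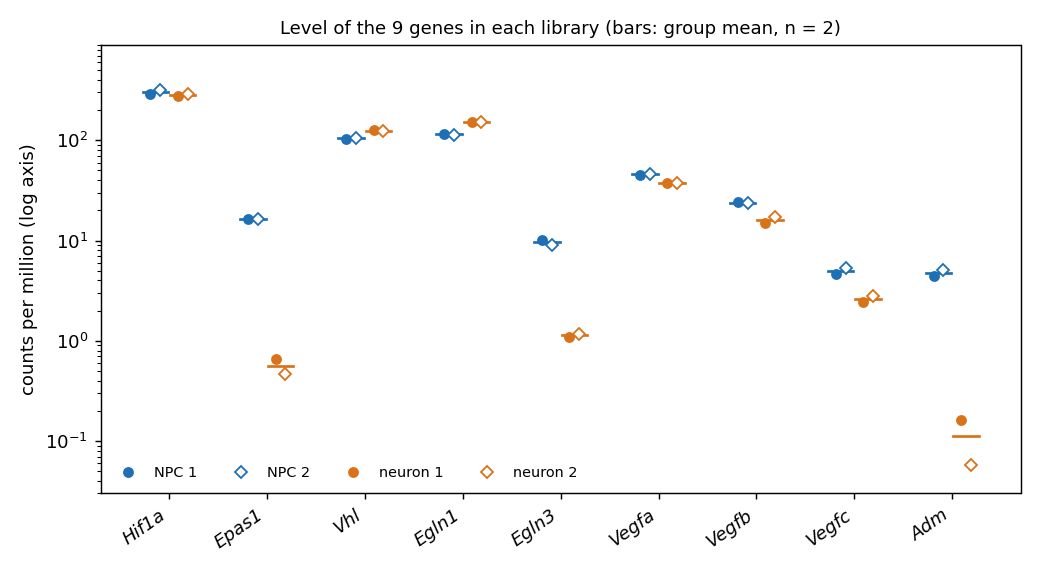
Level of each of the 9 genes in the 4 libraries, in CPM on a log axis. Points are libraries and bars are group means of 2 libraries. Epas1, Egln3 and Adm show the widest gaps between NPCs (blue) and neurons (orange).

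Hif1a, which encodes the broadly expressed alpha subunit, was at 292.0 and 314.5 CPM in the NPC libraries and at 274.8 and 288.9 CPM in the neuron libraries. The lowest NPC library thus lay just above the highest neuron library. The log2 change of -0.11 ± 0.06 did not pass (adjusted p = 0.105), and its 95% interval ran from -0.23 to 0.01, or from 0.855 to 1.01 times the NPC level. The side of the threshold on which Hif1a falls depended on the fit. It passed in 4 of 12 alternative fits, always as higher in NPCs. These were upper-quartile scaling (-0.21, adjusted p = 0.00331), library size as the only scaling (-0.31, adjusted p = 9.03e-05), a filter of 5 CPM (-0.14, adjusted p = 0.0311) and the fit without neuron replicate 2 (-0.13, adjusted p = 0.00489).

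Epas1, which encodes the paralogous alpha subunit known for its high level in vascular endothelium, was at 16.31 and 16.34 CPM in NPCs and at 0.655 and 0.465 CPM in neurons. Both neuron libraries were far below both NPC libraries, and the log2 change was -4.87 ± 0.16 (adjusted p = 8.45e-14). The neuron libraries held 32 and 24 reads of Epas1 against 939 and 975 in NPCs. From these reads the NPC level was 29.3-fold higher, with an exact 95% interval of 22.5 to 38.9 that covers counting error only. Over the 4 libraries, the genes with the profile most like that of Epas1 were Cd34, Cd93 and Kdr. They were found among 7957 genes averaging 20 CPM or more, by Euclidean distance of log2 CPM centred on each gene's mean, and their distances were 0.201, 0.211 and 0.275. Each reached that mean only through its NPC level (43.46, 41.97 and 41.69 CPM), so this search could return only genes that are abundant in one group.

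Endothelial and mural markers moved with this result. The 18 endothelial markers summed to 315.0 and 321.7 CPM in NPCs and to 26.15 and 26.48 CPM in neurons, with a median log2 change of -4.70 over the 17 tested, where the median of all genes tested was -0.02. The marker in the middle of that list was at 3.82% of its NPC level in neurons, beside 3.43% for Epas1. Ly6c1 had 0 counts in both neuron libraries, which places it at least 30.7-fold lower there, taking 3 counts over the group as the floor, and the median was the same with it at that bound. The 12 pericyte and mural markers summed to 256.7 and 262.5 CPM in NPCs and to 13.11 and 13.25 CPM in neurons, with a median of -4.49 over the 11 tested and none at 0 counts in both neuron libraries. The 8 oligodendrocyte precursor markers summed to 195.3 and 198.8 CPM in NPCs and to 5.84 and 6.08 CPM in neurons, with a median of -5.55, and the 7 meningeal fibroblast markers to 43.98 and 45.0 CPM and to 3.85 and 3.43 CPM, with a median of -3.71. The part of any of these cells in the Epas1 difference was not tested.

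**Figure D2:**
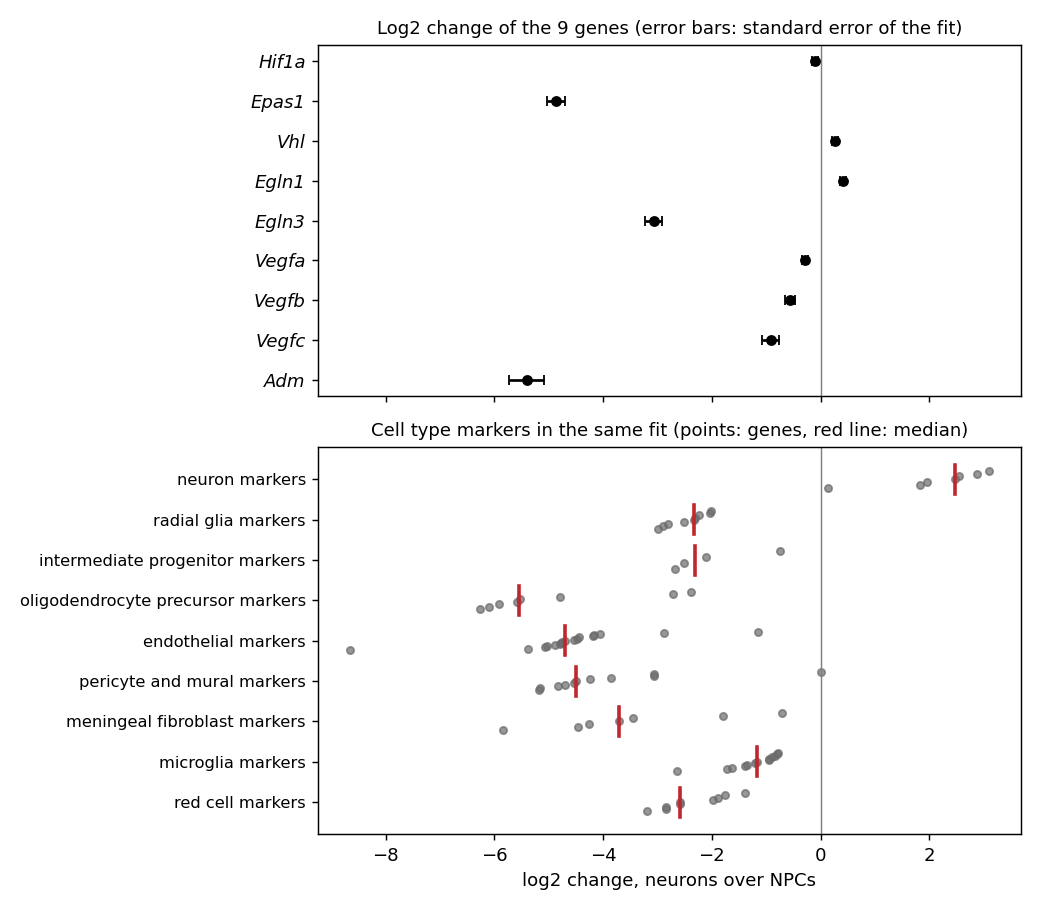
Log2 change of the 9 genes with the standard error of the fit (top), and of cell type markers in the same fit, with 1 point per gene and the median in red (bottom). Epas1 (-4.87) and Adm (-5.41) lie farthest to the left of the 9 genes, and Hif1a, Vhl, Egln1 and Vegfa lie near 0. The marker medians farthest to the left are -5.55 for oligodendrocyte precursor, -4.70 for endothelial and -4.49 for pericyte and mural markers. The endothelial point farthest left is Ly6c1, whose fitted value is no measure of size because both neuron libraries have 0 counts.

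Because a ratio of 2 genes within a library does not depend on scaling between libraries, the balance of the alpha subunit genes was also read that way. Hif1a had 17.9 and 19.3 times the counts of Epas1 in the NPC libraries and 419 and 621 times in the neuron libraries. All neuron values were above all NPC values, and the ratio was 27.5-fold higher in neurons. An exact two-sided permutation test gave p = 0.333, the smallest that 2 libraries against 2 allow, so this test could not pass any usual threshold.

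The genes that mark the alpha subunit for removal went in different directions. Vhl was at 104.2 and 104.5 CPM in NPCs and at 126.9 and 123.3 CPM in neurons. Both neuron libraries were higher, and the log2 change was 0.26 ± 0.05 (adjusted p = 0.000324), a rise to 120.0% of the NPC level. Scaling by library size alone shifted the median log2 change over all genes tested from -0.02 to -0.23, and under it Vhl was at 0.05 and did not pass (adjusted p = 0.358). Egln1, the main oxygen-sensing prolyl hydroxylase in most cells, was at 116.4 and 113.7 CPM in NPCs and at 152.0 and 152.7 CPM in neurons. It rose by a log2 change of 0.41 ± 0.05 (adjusted p = 2.86e-06), and passed with library size only at 0.20 (adjusted p = 0.00254).

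Egln3, a paralog of Egln1 that is itself induced by hypoxia in many cell types, was at 10.18 and 8.95 CPM in NPCs and at 1.09 and 1.18 CPM in neurons. It fell in neurons with a log2 change of -3.07 ± 0.16 (adjusted p = 2.50e-11), between the medians of the radial glia markers (-2.33) and of the endothelial markers (-4.70). Medians of other lists were -2.31 for intermediate progenitor, -2.59 for red cell and -3.71 for meningeal fibroblast markers. The radial glia markers summed to 3180 to 3199 CPM in NPCs and to 610.1 to 629.1 CPM in neurons, with none at 0. The part of any of these cells in the Egln3 difference was not tested. Within libraries, Egln1 had 11.4 and 12.7 times the counts of Egln3 in NPCs and 140.0 and 129.0 times in neurons. The 2 paralogs therefore changed unequally, by 11.2-fold, whatever the scaling (exact permutation p = 0.333, the smallest possible).

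Since these paralogs moved apart and Egln3 moved the same way as Adm, their promoters are shown as the 250 bases before the start site. The sequences are from RefSeq on build GRCm38.p6, which is not the build mm9 of the counts. Capitals mark the core letters that HIFs are known to bind, ACGTG or GCGTG, on either strand.
Egln1: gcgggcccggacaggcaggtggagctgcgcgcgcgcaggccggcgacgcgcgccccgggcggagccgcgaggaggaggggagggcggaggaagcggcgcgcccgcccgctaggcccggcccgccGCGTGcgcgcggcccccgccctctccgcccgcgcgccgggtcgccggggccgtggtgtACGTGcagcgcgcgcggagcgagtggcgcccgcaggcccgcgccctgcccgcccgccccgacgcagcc
Egln3: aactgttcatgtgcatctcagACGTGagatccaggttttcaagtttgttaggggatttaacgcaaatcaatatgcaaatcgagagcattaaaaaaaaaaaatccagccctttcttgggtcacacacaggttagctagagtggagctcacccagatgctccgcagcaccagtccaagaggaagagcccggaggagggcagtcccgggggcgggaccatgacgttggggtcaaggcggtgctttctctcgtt
Adm: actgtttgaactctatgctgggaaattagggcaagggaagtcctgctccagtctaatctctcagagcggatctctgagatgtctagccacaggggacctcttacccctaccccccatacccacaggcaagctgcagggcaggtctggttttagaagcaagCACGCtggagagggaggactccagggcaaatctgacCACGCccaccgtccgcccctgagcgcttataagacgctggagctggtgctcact
These windows are chr8:124949255-124949504 on the minus strand for Egln1, chr12:54203875-54204124 on the minus strand for Egln3 and chr7:110627407-110627656 on the plus strand for Adm. Egln1 had 2 matches, the first bases of which lay 126 and 68 bases before the start. Egln3 had 1 match, at 229 bases, and Adm had 2, at 90 and 54 bases, both of the second motif. The windows also differed in G and C content, at 86.0% for Egln1, 50.8% for Egln3 and 56.8% for Adm. A promoter was matched for 8 of the 9 genes, not Epas1. This gave 9 windows in all because Vegfa had 2, and 6 of the 9 windows held a match. Vegfa counted among these only through its window farther downstream, with 2 matches, and its upstream window had 0. Of 32851 promoter windows of this length, 38.6% held either motif, with 16.6% for the first and 28.2% for the second. The first motif can overlap its own reverse complement, and both are then counted. A match is a run of letters and was not tested as a binding site.

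Vegfa, Vegfb and Vegfc fell in neurons, to 82.0%, 67.8% and 52.9% of their NPC levels. Vegfa, the main growth factor for blood vessels, was at 45.4 and 46.6 CPM in NPCs and at 37.6 and 37.8 CPM in neurons. The groups did not overlap, and the level was 1.22-fold higher in NPCs, with a log2 change of -0.29 ± 0.06 (adjusted p = 0.000629). Its range over the 12 alternative fits was -0.49 to -0.27, and it passed in all 12. In neurons Vegfa was at 82.0% of its NPC level, beside 3.82% for the middle endothelial marker and 2.87% for Kdr, the main signalling receptor for Vegfa. The part of endothelial RNA in the Vegfa difference was not tested.

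Vegfb, a ligand of the receptor Flt1, was at 24.0 and 23.7 CPM in NPCs and at 15.1 and 17.2 CPM in neurons. All NPC values were higher, and the log2 change was -0.56 ± 0.09 (adjusted p = 1.75e-05). Vegfc, a growth factor for lymphatic vessels that acts through Flt4, was at 4.62 and 5.30 CPM in NPCs and at 2.46 and 2.79 CPM in neurons. Its log2 change was -0.92 ± 0.16 (adjusted p = 6.83e-05), again with no overlap of the groups. In the count ratio of Vegfa to Vegfb, NPC libraries had 1.89 and 1.97 and neuron libraries 2.49 and 2.19. Neurons were higher in both libraries, by 1.21-fold, with an exact permutation p of 0.333.

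Adm, which encodes adrenomedullin, was at 4.46 and 5.03 CPM in NPCs and at 0.164 and 0.058 CPM in neurons. The neuron libraries held only 8 and 3 reads, against 257 and 300 in NPCs. From these reads the NPC level was 43.4-fold higher, with an exact 95% interval of 24.1 to 87.4 for counting error only. The fitted log2 change was -5.41 ± 0.32 (adjusted p = 1.15e-10), and it became -6.29 without neuron replicate 1 and -4.83 without neuron replicate 2. Of the 9 genes Adm had the lowest log2 change, and 0.536% of all genes tested had a lower one. The endothelial (median -4.70), pericyte (-4.49) and oligodendrocyte precursor (-5.55) markers moved with it, and their part in the Adm difference was not tested.

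The order of the levels was compared per length, as CPM per kilobase of the longest protein-coding transcript of each gene in GENCODE M21. That annotation may differ from the one used for counting. In NPCs the order of mean level was Hif1a (64.2), Vhl (37.4), Egln1 (32.0), Vegfb (18.6), Vegfa (13.3), Egln3 (3.59), Adm (3.41), Epas1 (2.96) and Vegfc (2.02). Egln3 and Adm overlapped between their libraries, and no other neighbours in this order did. In neurons the first 5 were in the same order, from 59.7 for Hif1a to 10.9 for Vegfa, followed by Vegfc (1.07), Egln3 (0.426), Epas1 (0.102) and Adm (0.0798). The libraries of Epas1 and Adm overlapped there, and those of other neighbours did not. Vegfc, last of the 9 genes in NPCs, stood above Egln3, Epas1 and Adm in neurons.

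The other HIF partners and regulators had log2 changes from -1.20 for Hif3a to 0.63 for Siah1a. Of 15 genes, 9 were higher in neurons and 5 were lower, where 35.8% and 36.9% of all genes tested were, and the median log2 change was 0.18, beside -0.02 over all genes tested. Parts of the ubiquitin ligase that works with Vhl were higher in neurons: Cul2, its scaffold, went from 107.6 ± 3.60 to 153.1 ± 3.26 CPM (0.51 ± 0.05, adjusted p = 2.75e-07), and Rbx1, its RING subunit, from 276.0 ± 7.41 to 384.4 ± 28.3 CPM (0.48 ± 0.06, adjusted p = 1.69e-06). Siah1a, a ubiquitin ligase known to act on Egln proteins, had a log2 change of 0.63 ± 0.06 (adjusted p = 4.75e-08), a value that is uncertain where reads are shared with its close copy Siah1b. These directions depended on scaling for some members. With upper-quartile factors or library size only the counts were 5 and 5, and Ep300, Crebbp and Cited2, called as higher in neurons in the reported fit, were at -0.01, -0.05 and -0.03 with library size only. Without NPC replicate 1, 6 genes were higher in neurons and 3 in NPCs.

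Arnt, the stable partner of both alpha subunits, and Hif1an, the asparagine hydroxylase that blocks their activity, fell in neurons. They are named here after their values were seen. Arnt went from 42.24 ± 2.19 to 31.75 ± 2.68 CPM, and Hif1an from 36.75 ± 0.168 to 26.23 ± 0.269 CPM. Hif3a, another alpha subunit gene, also fell, from 7.46 ± 0.089 to 3.24 ± 0.367 CPM. Egln2, a paralog of Egln1 and Egln3 that is likewise named after its values were seen, fell from 40.57 ± 1.23 to 36.37 ± 0.639 CPM. Its log2 change was -0.16 ± 0.06 (adjusted p = 0.0384), and it did not pass with DESeq2 or without the low-count filter. Arnt2, the partner known from brain, was at 76.32 ± 1.08 and 83.76 ± 5.95 CPM and did not pass (adjusted p = 0.0574), and with library size only its log2 change was -0.07.

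Receptor genes of the Vegf system split between tyrosine kinase receptors and co-receptors. All 7 other ligand and receptor genes passed, where 72.6% of all genes tested did. Of the 7, 4 fell and 3 rose in neurons, too few to set against the 36.9% and 35.8% of all genes tested. Their median log2 change was -0.91. Kdr was at 40.81 and 42.56 CPM in NPCs and at 1.33 and 1.07 CPM in neurons. Its log2 change was -5.12 ± 0.12 (adjusted p = 1.78e-15). Flt1, which binds Vegfa and Vegfb, and Flt4, named after their values were seen, had log2 changes of -4.44 ± 0.16 and -5.09 ± 0.36, though Flt4 had only 2 and 8 reads in the neuron libraries. These kinase receptors are themselves known from endothelium, whose markers had a median of -4.70.

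Nrp1, a co-receptor for Vegfa that is also a semaphorin receptor of axons, went the other way. It was at 182.3 and 183.0 CPM in NPCs and at 577.2 and 574.0 CPM in neurons, and rose by a log2 change of 1.66 ± 0.05 (adjusted p = 5.97e-14). Nrp2, its paralog, rose by 0.75 ± 0.08. The Vegf ligand gene Figf (Vegfd), also named after its values were seen, rose by 2.79 ± 0.38 from 9 and 12 reads in NPCs to 55 and 71 in neurons, while the placental growth factor gene Pgf fell by 0.91 on the log2 scale. The count ratio of Vegfa to Kdr was 1.11 and 1.09 in NPC libraries and 28.2 and 35.5 in neuron libraries, a 28.7-fold difference (exact permutation p = 0.333, the smallest possible).

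**Figure D3:**
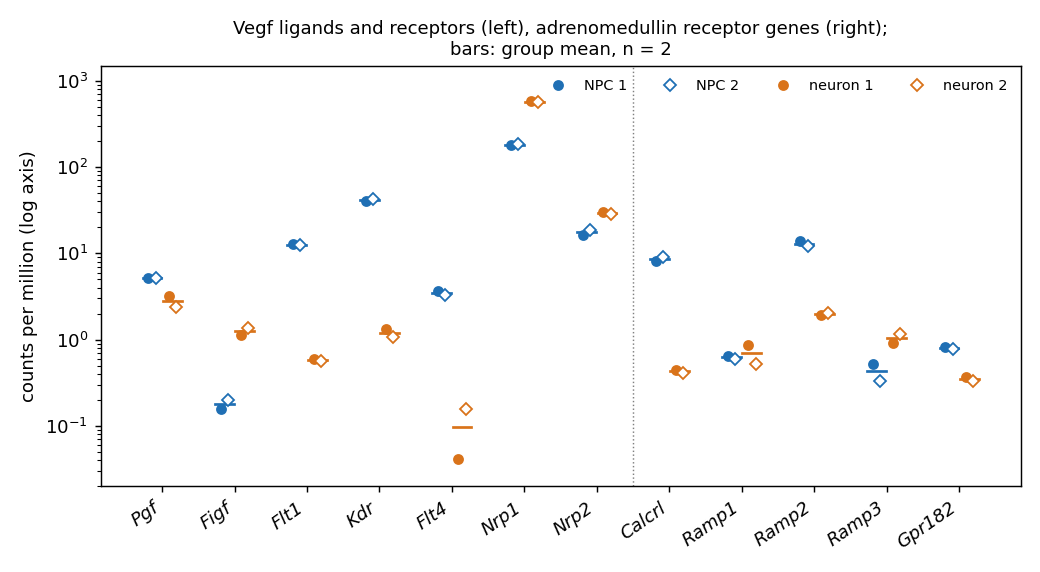
Level of Vegf ligands and receptors (left of the dotted line) and adrenomedullin receptor genes (right) in the 4 libraries, in CPM on a log axis, with group means as bars. Kdr, Flt1, Flt4, Calcrl and Ramp2 are lower in neurons, and Nrp1 and Nrp2 are higher.

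Adrenomedullin signals through the receptor Calcrl joined to an accessory protein of the Ramp family. Of 6 genes of this list 5 were tested. Of these, 3 fell and 1 rose in neurons, too few to set against the 36.9% and 35.8% of all genes tested, and the median log2 change was -1.20. Calcrl fell from 8.65 ± 0.662 to 0.429 ± 0.031 CPM (-4.33 ± 0.19, adjusted p = 3.53e-12), and Ramp2, its partner in vessels, from 12.90 ± 1.18 to 1.98 ± 0.049 CPM (-2.70 ± 0.14, adjusted p = 1.44e-11). Ramp3, another accessory protein gene, rose from 30 and 20 reads to 45 and 60 (1.29 ± 0.34, adjusted p = 0.00312), and Ramp1 did not pass (0.15 ± 0.35, adjusted p = 0.723). Both are named after their values were seen. The related peptide gene Adm2 had 0 counts in all 4 libraries. Calcrl and Ramp2 are also known from endothelium, and the part of endothelial or other cells in their differences was not tested.

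HIF target genes were read from lists chosen from general knowledge, but with earlier results of these data known. All 21 genes of glucose uptake and glycolysis passed. Of these, 15 fell and 6 rose in neurons, where 36.9% of all genes tested fell, 35.8% rose and 72.6% passed, and the median log2 change was -0.50, beside -0.02 over all genes tested. Aldoc, an aldolase of glia and progenitors, fell from 281.1 ± 2.35 to 48.69 ± 1.71 CPM (-2.53 ± 0.06, adjusted p = 1.82e-15). Slc2a1, the main glucose transporter of the blood-brain barrier, fell from 117.4 ± 0.468 to 30.30 ± 0.923 CPM (-1.95 ± 0.06, adjusted p = 3.13e-14). Medians of marker lists were -4.70 for endothelial, -2.59 for red cell, -2.33 for radial glia, -2.31 for intermediate progenitor and -1.16 for microglia markers. The part of any of these cells in the Slc2a1 difference was not tested. Pkm2, a pyruvate kinase gene and the most abundant of the list, fell from 1508 ± 21.2 to 961.3 ± 58.5 CPM (-0.65 ± 0.06). Glycolysis genes such as Gapdh have near-identical processed copies, so their values are uncertain.

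Of 20 other HIF target genes tested, 13 were higher in NPCs, 5 were higher in neurons and 2 did not pass, where 36.9%, 35.8% and 72.6% of all genes tested were higher in NPCs, higher in neurons and called in either direction. The median log2 change of these 20 genes was -0.35. Plod2, an enzyme of collagen cross-linking, fell from 53.44 ± 2.44 to 13.98 ± 0.226 CPM (-1.93 ± 0.07, adjusted p = 3.63e-13). Ndrg1, a stress-responsive gene, rose from 18.82 ± 0.284 to 108.2 ± 2.84 CPM (2.52 ± 0.06, adjusted p = 3.87e-15). Bnip3l, a receptor for the removal of mitochondria and the most abundant of the list, was at 332.3 ± 7.87 and 348.9 ± 17.0 CPM and did not pass (adjusted p = 0.264), with a log2 change of 0.07 that became -0.03 with upper-quartile factors and -0.14 with library size only. With library size as the only scaling, 3 genes were higher in neurons and 14 in NPCs.

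**Figure D4:**
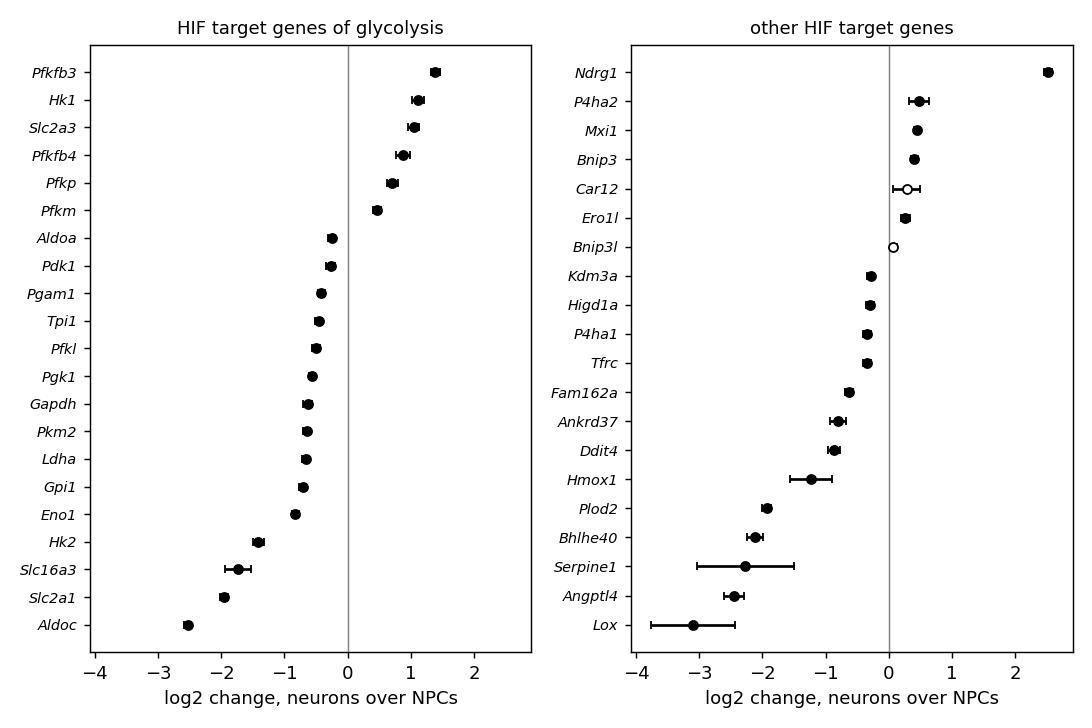
Log2 change, neurons over NPCs, of 21 glycolysis genes (left) and 20 other HIF target genes (right), with the standard error of the fit. Filled points have an adjusted p under 0.05. Most points lie below 0, and Ndrg1 lies farthest to the right at 2.52.

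Genes whose profile over the 4 libraries was most like that of Hif1a, Vegfa and Vegfb were found by the same distance as for Epas1. For Hif1a they were Hmgxb4, Commd8 and Cog5, at distances of 0.0192 to 0.0251, and for Vegfa they were Npat, Rnf115 and Supt5h, at 0.00828 to 0.0176. For Vegfb they were Pdcd4, Ino80b and Rrp36, at 0.0358 to 0.045. With 4 libraries and changes this small, many genes lie close to such a profile.

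**Figure D5:**
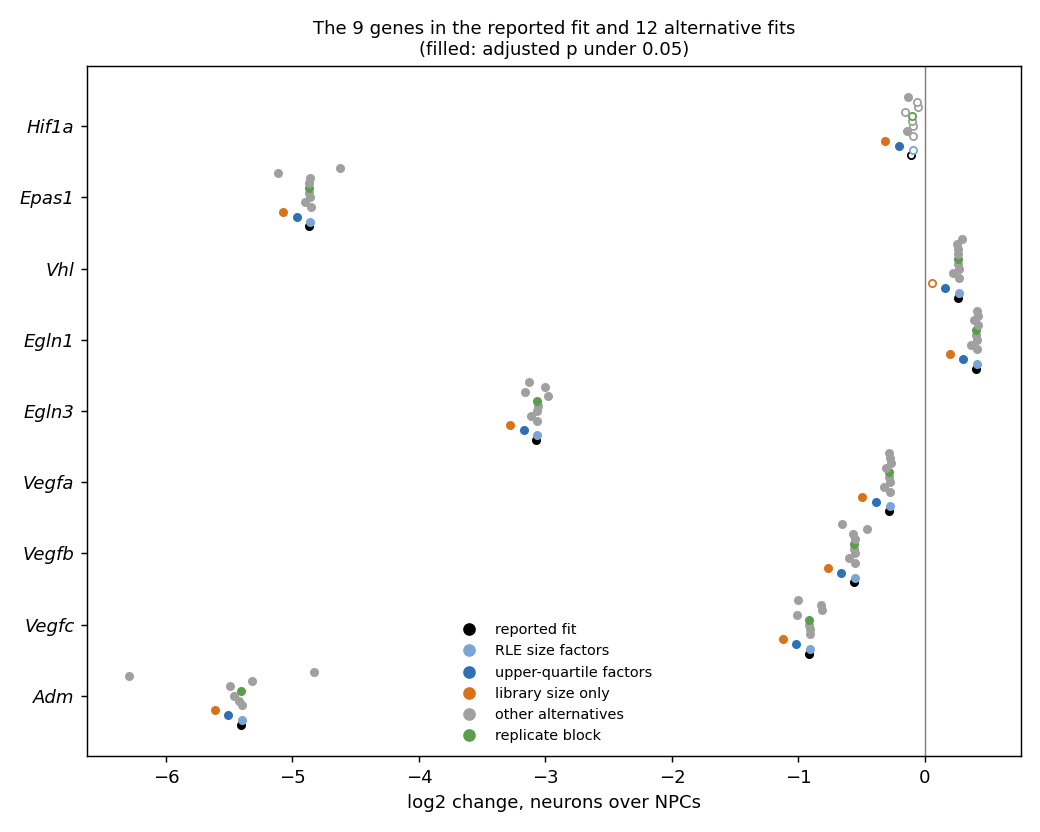
Log2 change of the 9 genes in the reported fit (black) and in the alternative fits, with filled points for an adjusted p under 0.05. Library size as the only scaling (orange) moves every gene to the left, Hif1a has filled and open points, and Vhl has 1 open point.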

How the data were processed

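RNA-seq libraries of 2 sorted cell groups of mouse cortex were used. The authors deposited 1 table with an estimated count per gene and library, not scaled between libraries. The tools named, per the submitters' processing notes, are TopHat 1.2.0, SAMtools 0.1.18 and CASAVA 1.9, with build mm9. How genes were counted, on which annotation and with or without strand is not given in the sources used here. Nor is it given what was done with reads that align more than once, so overlapping and near-identical genes are uncertain. The copies Hba-a1 and Hba-a2 had almost the same counts in each library, as did Hbb-b1 and Hbb-b2. Their entries among the red cell markers are therefore not independent. In GENCODE M21, exons of Hif1a overlap 2 other genes, of which 0 are in the table, and the other 8 genes have no such overlap.

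Estimated counts were first rounded to integers, and 15292 of 23240 rows passed filterByExpr. TMM factors were 1.08, 1.07, 0.928 and 0.933. The comparison was a two-sided quasi-likelihood test without a block, made with edgeR 4.0.16 under R 4.3.3. The method was also run on simulated data with the same spread in both groups and few genes changed. The real data differ in both respects, so that run does not show how the method performs here. The standard error was derived from the change and its F value, and intervals of log2 changes use its t distribution. The spread used for each gene came mostly from all genes tested (13.9 prior degrees of freedom) and less from its own duplicates (2). Standard errors and intervals are thus not the spread of a gene's own duplicates alone. Duplicates differed by more than sampling noise, with a chi-square per gene of 4.56 for NPCs and 14.1 for neurons. They were treated as separate samples, though such a spread may be technical. The 9 genes and all lists were chosen with earlier results of these data known. Named genes are the 9, the 2 with the smallest p and the 1 with the highest mean CPM of each list, and the 3 most like genes, with exceptions stated. Of the marker lists, Map2 was not analysed here. Alternatives were other scaling, filters, DESeq2 1.42.0, limma-voom (limma 3.58.1), a replicate block and leaving out each library.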

Additional observations from a re-analysis of the deposited data

How the results depend on the processing

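Of the alternative values computed for the 9 genes, the count ratios and the counts of genes called, 191 kept their direction and their side of the threshold, or moved by less than the limit set for a count or a ratio, 7 did not, and 0 changed sign. Among single genes of the lists, Arnt2, Ep300, Crebbp, Cited2, Ramp1 and Bnip3l changed sign with library size only. Hif1a passed with upper-quartile factors (-0.21), with library size only (-0.31), with a filter of 5 CPM (-0.14) and when libraries were left out in turn in 1 of 4 cases, with a range of -0.16 to -0.051. The cause was not tested. Vhl did not pass with library size only (0.054), a scaling that shifts all genes. The count of HIF partners and regulators called was 14 and lay between 9 and 15 with 1 library left out. With the filter of 5 CPM, 2 of 2 adrenomedullin receptor genes tested were called, because fewer genes passed the filter, and Vegfc and Adm were not tested. Among all genes, 11108 were called, and 9773 to 11252 with 1 library left out. Calls higher in neurons were 49.2% in the reported fit and 33.5% with library size only. The labels do not say whether samples with the same duplicate number share more than that number. The correlation of their deviations over 7957 genes was 0.07, which cannot show whether they were paired. The fit with a replicate block called 11206 genes and changed the call of none of the 9, with Hif1a at -0.11. Depth limits Adm, with 8 and 3 reads in the neuron libraries.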

Other observations

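Some paralogs of glucose use moved in opposite directions and others together, as picked out after the values were seen. The glucose transporter gene Slc2a1 fell by 1.95 on the log2 scale, and Slc2a3, a transporter known from neurons, rose from 17.81 ± 1.78 to 36.69 ± 1.81 CPM (1.04 ± 0.08, edgeR adjusted p = 5.49e-09). The hexokinase gene Hk2 fell from 20.75 ± 0.235 to 7.80 ± 0.348 CPM, and Hk1 rose from 16.24 ± 1.05 to 35.19 ± 5.46 CPM. Of the phosphofructokinase genes, Pfkl fell by 0.50 on the log2 scale, and Pfkp and Pfkm rose by 0.71 and 0.46. The aldolase genes Aldoa and Aldoc both fell, with log2 changes of -0.25 and -2.53. Pfkfb3 and Pfkfb4, which make the activator of phosphofructokinase, rose by 1.39 and 0.88. The 4 library values of each gene did not overlap between groups, as for 86.0% of all genes tested, and none of these calls was lost in an alternative fit.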
